A study of Mus musculus with 3 samples.

Results

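Genes of the amino acid and integrated stress response were followed across the 3 arrays of the study. The group held 10 mouse genes, listed by name with no threshold on a measured value, though with earlier results of these data known: the transcription factor genes Atf4, Atf3 and Ddit3, the feedback genes Trib3 and Ppp1r15a, the effector genes Chac1 and Sesn2, and the amino acid synthesis genes Asns, Phgdh and Psat1. They were read by 13 of 41174 non-control probes, among 18348 genes that could be named. Phgdh had 3 probes, Trib3 had 2, and the other 8 genes had 1 each.

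All RNA came from C2C12, an established line of mouse muscle precursors whose cells, once serum is lowered, join into multinucleated myotubes. The neurogenic cellulates were BIO cellulates that then spent 7 days in neurogenic medium, for which the protocol lists 250 nM reversine for 48 h, 1.5 µM all-trans retinoic acid and an N2-supplemented DMEM/F12 base. The BIO cellulates came from myotubes formed over 8 days in 2% horse serum, with 10 µM of the cytostatic drug AraC from day 2 to day 4. These myotubes were broken up with myoseverin, a microtubule-binding compound, and exposed for 2 days to BIO, an inhibitor of the kinase GSK-3. The sources disagree on dose: BIO is 2.5 µM in the sample labels and 10 µM in the protocol, and myoseverin is 20 µM in the series text and 30 µM in the protocol. The myoblasts were untreated. Untreated myotubes, and cellulates that never met BIO, were not analysed here. In a comparison with myoblasts the effects of fusion, AraC, myoseverin and BIO therefore cannot be told apart, nor can those of medium, reversine, retinoic acid and time between the kinds of cellulate.

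In this response, kinases that sense amino acid shortage, unfolded protein, haem deficiency or double-stranded RNA phosphorylate the translation factor eIF2. General translation falls while translation of the Atf4 mRNA is favoured, and the ATF4 protein, paired with C/EBP factors, switches on genes of amino acid supply and stress signalling. Because Atf4 is controlled largely at translation, its target mRNAs are commonly used to follow the response. In skeletal muscle the secreted factor FGF21 is a known product of the same response.

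The promoters of the members that carried the elements of this pathway are shown first, since these elements are where ATF4 and its relatives bind. RefSeq promoter windows of assembly GRCm38.p6, each 300 bases long from 250 bases before to 50 bases after the transcription start, were available for all 10 genes, with a second window for Psat1. The composite C/EBP-ATF element was searched as TGATGNAA and the cAMP response element as TGACGTCA, on both strands. The composite element was found in 4 of 10 members, Atf3, Chac1, Trib3 and Asns, and in 4.51% of all 27025 genes with a window. The cAMP response element was found in 1 of 10, Ppp1r15a, against 2.03% of all genes. A match is a description of these letters and was not tested as a site. The matched bases stand in capitals. The windows lie at chr1:191183284-191183583 on the minus strand for Atf3, chr2:119350992-119351291 on the plus strand for Chac1, chr2:152344011-152344310 on the minus strand for Trib3, chr6:7693160-7693459 on the minus strand for Asns and chr7:45526219-45526518 on the minus strand for Ppp1r15a, and each is written from 5′ to 3′ along the gene.
Atf3: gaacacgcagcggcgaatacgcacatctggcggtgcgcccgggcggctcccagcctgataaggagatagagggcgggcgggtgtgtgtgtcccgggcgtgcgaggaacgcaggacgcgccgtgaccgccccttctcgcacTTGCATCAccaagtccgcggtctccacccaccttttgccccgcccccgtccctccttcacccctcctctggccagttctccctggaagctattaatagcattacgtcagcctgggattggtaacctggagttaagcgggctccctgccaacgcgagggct
Chac1: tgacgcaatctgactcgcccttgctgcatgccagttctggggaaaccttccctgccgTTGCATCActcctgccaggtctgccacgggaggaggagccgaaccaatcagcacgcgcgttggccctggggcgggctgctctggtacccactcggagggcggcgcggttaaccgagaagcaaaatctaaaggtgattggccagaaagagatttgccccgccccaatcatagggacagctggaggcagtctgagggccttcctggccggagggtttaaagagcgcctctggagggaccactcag
Trib3: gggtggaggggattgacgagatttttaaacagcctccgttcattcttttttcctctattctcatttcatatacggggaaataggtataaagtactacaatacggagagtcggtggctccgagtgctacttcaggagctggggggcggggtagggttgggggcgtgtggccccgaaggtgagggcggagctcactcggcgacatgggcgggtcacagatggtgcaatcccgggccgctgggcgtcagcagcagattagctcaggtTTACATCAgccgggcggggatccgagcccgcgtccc
Asns: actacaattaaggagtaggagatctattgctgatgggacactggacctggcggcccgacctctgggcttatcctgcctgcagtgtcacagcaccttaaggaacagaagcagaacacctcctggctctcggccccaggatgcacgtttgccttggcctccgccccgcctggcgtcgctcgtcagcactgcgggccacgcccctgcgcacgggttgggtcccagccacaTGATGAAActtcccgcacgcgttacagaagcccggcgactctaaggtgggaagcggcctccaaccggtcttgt
Ppp1r15a: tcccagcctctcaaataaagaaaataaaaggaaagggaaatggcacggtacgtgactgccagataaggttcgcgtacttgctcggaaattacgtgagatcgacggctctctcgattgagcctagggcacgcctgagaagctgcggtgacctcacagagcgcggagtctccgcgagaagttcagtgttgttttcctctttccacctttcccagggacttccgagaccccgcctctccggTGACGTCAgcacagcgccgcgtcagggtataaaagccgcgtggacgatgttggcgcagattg

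The composite element of Asns began 23 bases before the annotated start and read TGATGAAA. In Atf3 and Chac1 it read TTGCATCA, which is the same motif on the opposite strand, 110 and 193 bases before the start. In Trib3 it read TTACATCA and began 14 bases after the start. The palindromic element of Ppp1r15a began 12 bases before the start. The windows of Atf4, Ddit3, Sesn2, Phgdh and Psat1 held neither string of letters.

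With 1 array per group, the spread between cultures is unknown and no p-value is given. Every value is a one-colour intensity divided by its array's 75th percentile over non-control spots, called the scaled signal here. The ± beside a scaled signal or a log2 difference is the error that the scanner software assigned to the spot, and it covers the spot alone. Probes spotted 10 times gave a second technical measure. Their spread within an array puts 95% of spot-to-spot differences inside 1.41-fold when BIO cellulates are set against myoblasts. The range is 1.33-fold between neurogenic and BIO cellulates, and 1.37-fold between neurogenic cellulates and myoblasts. Between 45.7% and 50.7% of 43379 spots per array were well above background and 0 were saturated. Terminal muscle markers were well above background on every array (6 of 6 genes), with a summed scaled signal of 2323 in neurogenic cellulates, 3237 in BIO cellulates and 60.1 in myoblasts. Markers of dividing cells summed to 16.7, 18.6 and 151 in the same order, with Mki67, Ccnb1, Cdk1 and Plk1 lower in both kinds of cellulate than in myoblasts and Top2a well above background in neurogenic cellulates alone. Among the markers of myoblast identity, Myf5 was not well above background on any array, including the untreated myoblasts, while Myod1, Pax7, Des and Cdh15 were. Cdh15 was 2.15-fold lower in BIO cellulates than in myoblasts, while Des was 12.2-fold, Pax7 1.67-fold and Myod1 1.29-fold higher. Fibroblast markers were well above background for 4 of 5 genes on every array. Col1a1 was 3.25-fold lower and Dcn 6.58-fold higher in neurogenic cellulates than in myoblasts. Of the macrophage markers, Ptprc and Adgre1 were dim on all 3 arrays, while Csf1r was well above background on all 3. The sums over these 3 genes were 0.812 in neurogenic cellulates, 1.12 in BIO cellulates and 0.839 in myoblasts. Of 6 neuronal markers, 4 were well above background in neurogenic cellulates, 4 in BIO cellulates and 3 in myoblasts. Their summed scaled signal was lower in both kinds of cellulate, at 5.85 in neurogenic cellulates, 6.09 in BIO cellulates and 10.73 in myoblasts. Map2 was 2.31-fold lower and Nefm higher by at least 2.20 on the log2 scale in neurogenic cellulates than in myoblasts. Tubb3 was also lower there, at a log2 difference of -0.97. Dcx was at least 3.82-fold higher in BIO cellulates than in myoblasts, and was not well above background in neurogenic cellulates. The part that these marker differences play in the values below was not tested, and in bulk RNA a change in the number of cells of a type cannot be told apart from a change in RNA per cell.

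**Figure D1:**
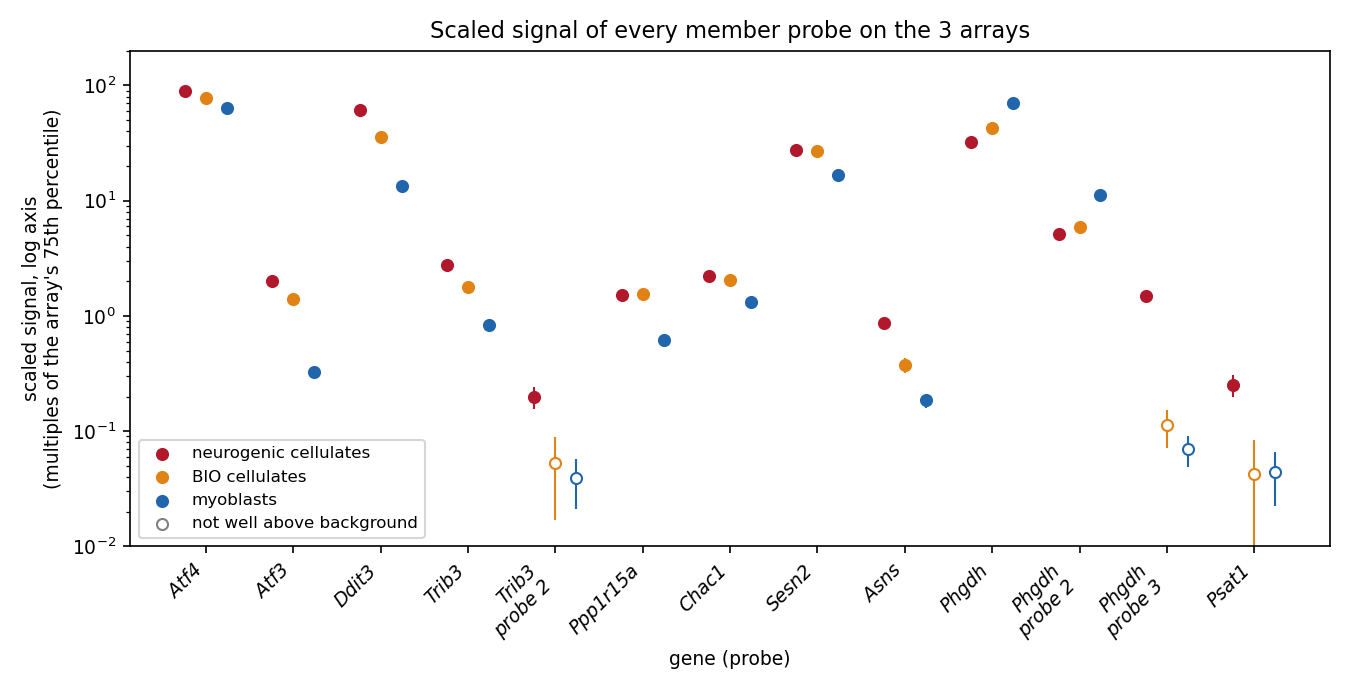
Scaled signal (log axis, multiples of the array's 75th percentile) of all 13 member probes in neurogenic cellulates, BIO cellulates and myoblasts, 1 array each; bars are the scanner software's error, open circles are not well above background, and the lower bar of Psat1 in BIO cellulates runs off the axis. Signals can be compared within a probe and not between probes; Atf3, Ddit3, Trib3 and Asns descend from left to right, and the brightest Phgdh probe ascends.

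BIO cellulates were first set against myoblasts. A 2-fold or larger excess in BIO cellulates was seen for 5 of the 9 members that could be compared, and 0 members were lower by as much. Over all 12829 genes compared, 11.2% were higher and 6.01% lower by 2-fold or more. The members at least 2-fold higher were the stress transcription factors Atf3 and Ddit3, the feedback genes Ppp1r15a and Trib3, and the asparagine synthetase gene Asns. The median over the 9 members was 1.02 on the log2 scale, beside 0.01 over the 11185 genes well above background on both arrays. The members were spread over 2.84 log2 units, from -0.72 for Phgdh to 2.12 for Atf3.

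These values depended on how the arrays were scaled. Before scaling, the 75th percentile of intensity was lower on the BIO array, at 115 units in BIO cellulates against 181 in myoblasts. The medians were not lower, at 17.9 units in BIO cellulates and 17.1 in myoblasts. These medians lay near the dimmest signals marked well above background, 17.3 and 13.6 units, so median scaling rests on spots near background. When arrays were scaled to their medians instead, the median of all genes moved to -0.71, a shift of -0.72 that applies to every gene. Any log2 difference below 0.72 reported here for BIO cellulates against myoblasts is then negative. The members' median was 0.30 with median scaling, and 1 member, Atf3, was at least 2-fold higher. The members' median lay 1.01 above that of all genes, which a change of scaling constant cannot alter, and 0.84 above it after quantile normalisation and 0.77 after normexp correction. Among all genes at least 2-fold different, the share that was higher in BIO cellulates was 65.1%, and it was 9.07% with median scaling and 50.4% after quantile normalisation.

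Atf4, the factor at the head of the response, had a scaled signal of 78.5 ± 7.85 in BIO cellulates and 63.4 ± 6.34 in myoblasts. The log2 difference of 0.31 ± 0.20 lay inside the range of repeat spots, and it was -0.41 with median scaling, so no direction is drawn for Atf4 here. Atf3, a bZIP factor induced by many stresses, had 1.41 ± 0.145 in BIO cellulates and 0.324 ± 0.0368 in myoblasts. It was 4.34-fold higher (log2 difference 2.12 ± 0.22), and 1.07% of the genes measured on both arrays were at least as much higher. Ddit3, which encodes the factor CHOP, had 35.8 ± 3.58 in BIO cellulates and 13.4 ± 1.34 in myoblasts, a 2.68-fold higher signal that 3.43% of genes matched or passed. Both factors stayed higher in BIO cellulates under all 10 settings tried, at log2 differences from 1.15 to 2.29 for Atf3 and from 0.70 to 1.59 for Ddit3. The settings on dim probes and on several probes per gene give the reported value for both genes, each with 1 probe. The deposited table differs from log2 intensity by a constant per array. Counts out of 10 settings are therefore not 10 separate checks.

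Both feedback genes were also higher. Ppp1r15a, also known as Gadd34, encodes the phosphatase subunit that removes phosphate from eIF2 and so ends the block on translation. Its scaled signal was 1.54 ± 0.158 in BIO cellulates and 0.622 ± 0.0644 in myoblasts, 2.48-fold higher. Trib3, a pseudokinase that binds and restrains ATF4 and the kinase Akt, had 1.79 ± 0.182 in BIO cellulates and 0.829 ± 0.0844 in myoblasts by its brighter probe, 2.16-fold higher. Its second probe was not well above background in either culture. With median scaling the log2 differences were 0.59 for Ppp1r15a and 0.40 for Trib3, and the 2-fold threshold was passed under 8 and 6 of 10 settings.

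The effector genes differed less. Chac1, which encodes an enzyme that breaks down glutathione, had a scaled signal of 2.05 ± 0.209 in BIO cellulates and 1.32 ± 0.134 in myoblasts. Sesn2, a leucine sensor that restrains the growth kinase complex mTORC1, had 26.8 ± 2.68 in BIO cellulates and 16.6 ± 1.66 in myoblasts. These are log2 differences of 0.63 ± 0.21 and 0.69 ± 0.20, beyond the repeat-spot range yet under 2-fold. Before scaling, the intensities of both genes were nearly equal, at ratios of 0.981 and 1.02, and with median scaling their log2 differences were -0.09 and -0.03. They therefore had no settled direction.

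The amino acid synthesis genes did not share 1 direction. Asns, which makes asparagine from aspartate and glutamine, had a scaled signal of 0.376 ± 0.0571 in BIO cellulates and 0.185 ± 0.0272 in myoblasts. At 2.03-fold higher (log2 difference 1.02 ± 0.31) it lay just past the threshold. It stayed there under 6 of 10 settings, which include those that cannot change a gene with 1 probe. The log2 difference was 1.19 with the 75th percentile over probes well above background and 0.88 with scaling on spike-in controls. It was 0.65 after quantile normalisation, 0.30 with median scaling and 0.30 after normexp correction. Phgdh, which commits glycolytic 3-phosphoglycerate to serine synthesis, ran the other way, at 42.4 ± 4.24 in BIO cellulates and 70.0 ± 7.00 in myoblasts. The brightest Phgdh probe was 1.65-fold lower (log2 difference -0.72 ± 0.20), the next one gave -0.91 ± 0.20, and the sign was negative under all 10 settings. Psat1, the aminotransferase of the next step of serine synthesis, was not well above background in either culture, so its fold cannot be stated.

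**Figure D2:**
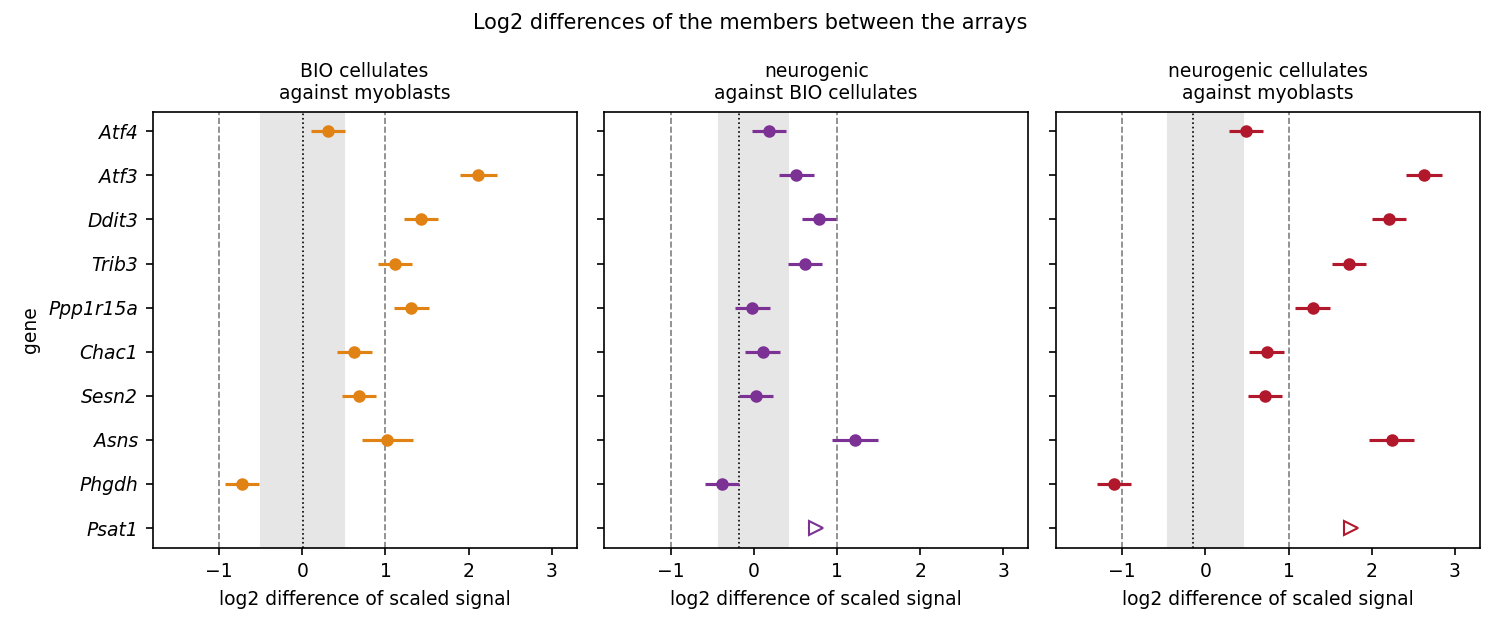
Log2 difference of scaled signal for each member in the 3 comparisons, with the scanner software's error; the grey band is the 95% range of repeat spots, the dotted line the median of all genes and the dashed lines 2-fold. Open triangles are lower bounds for Psat1; Atf3 lies highest in BIO cellulates against myoblasts at 2.12 and Phgdh lowest at -0.72, and with median scaling Atf4, Chac1 and Sesn2 fall below 0 in that panel, as do Atf4 and Sesn2 in the last.

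Neurogenic cellulates were then set against the BIO cellulates they were made from. Asns was the 1 member of 10 at least 2-fold higher in neurogenic cellulates, and 0 were at least 2-fold lower. Of all 12255 genes compared, 4.16% were higher and 1.8% lower by 2-fold or more. The median log2 difference over the 9 members measured on both arrays was 0.18, beside -0.18 over all 10875 such genes, so the members as a set lay 0.36 higher than the typical gene.

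Asns had a scaled signal of 0.876 ± 0.102 in neurogenic cellulates and 0.376 ± 0.0571 in BIO cellulates. It was 2.33-fold higher (log2 difference 1.22 ± 0.28), which 1.61% of genes matched or passed, and its sign was the same under all 10 settings. After normexp background correction the difference was 0.49. Ddit3 had 61.7 ± 6.17 in neurogenic cellulates and 35.8 ± 3.58 in BIO cellulates, 1.72-fold higher. Trib3 had 2.75 ± 0.277 in neurogenic cellulates and 1.79 ± 0.182 in BIO cellulates, 1.53-fold higher. Atf3 had 2.00 ± 0.204 in neurogenic cellulates and 1.41 ± 0.145 in BIO cellulates, 1.43-fold higher. All of these differences exceeded the range of repeat spots, and all kept their sign under the 10 settings.

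The remaining members that were measured on both arrays stayed inside that range. Log2 differences between neurogenic and BIO cellulates were 0.18 ± 0.20 for Atf4, 0.11 ± 0.21 for Chac1, 0.03 ± 0.20 for Sesn2, -0.02 ± 0.21 for Ppp1r15a and -0.38 ± 0.20 for the brightest Phgdh probe. The sign for Ppp1r15a was negative under 6 of 10 settings and positive under 4. Phgdh had 32.6 ± 3.26 in neurogenic cellulates and 42.4 ± 4.24 in BIO cellulates, and its second probe gave -0.19 ± 0.20. The third and dimmest Phgdh probe went the other way, at 1.50 ± 0.155 in neurogenic cellulates and not well above background in BIO cellulates, at least 9.95-fold higher.

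Psat1 was well above background in neurogenic cellulates alone. Its scaled signal was 0.252 ± 0.0551 in neurogenic cellulates, 0.0422 ± 0.0421 in BIO cellulates and 0.0442 ± 0.0216 in myoblasts. Against the lowest signal that counted as well above background, this is at least 1.68-fold higher than in BIO cellulates and at least 3.35-fold higher than in myoblasts. On the log2 scale these bounds are 0.75 and 1.75, and after normexp correction they were 0.32 and 0.29. Against myoblasts the bound was 1.02 with median scaling and 1.06 after quantile normalisation. Among 19317 probes dim in BIO cellulates and in myoblasts, 703 (3.64%) were well above background on the neurogenic array. By the same rule, 728 of 19342 probes were so on the BIO array alone and 2242 of 20856 on the myoblast array alone. Of the 703 probes, 96 were at least 4-fold brighter than the higher of such bounds from the other arrays. The corresponding counts at 4-fold were 10 probes on the BIO array and 11 on the myoblast array. Psat1, at 1.68-fold over the higher bound, is not among the 96. The part that these array-wide counts play in the Psat1 value was not tested.

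Neurogenic cellulates set against myoblasts gave a comparison that shares an array with each of those above. Of 10 members, 6 were at least 2-fold higher in neurogenic cellulates and 1, Phgdh, was at least 2-fold lower. Among all 12855 genes compared, 12.1% were higher and 10% lower by 2-fold or more. Atf3 was 6.19-fold higher, Asns 4.73-fold, Ddit3 4.62-fold, Trib3 3.31-fold, Ppp1r15a 2.45-fold and Psat1 at least 3.35-fold. Phgdh had 32.6 ± 3.26 in neurogenic cellulates against 70.0 ± 7.00 in myoblasts, 2.15-fold lower, and its second probe gave the same log2 difference of -1.10. The third Phgdh probe opposed them and was at least 19.9-fold higher in neurogenic cellulates, so the probes of Phgdh disagree on direction. The brightest probe was 2-fold lower under 6 of 10 settings and negative under all 10. Chac1 and Sesn2 had log2 differences of 0.74 ± 0.21 and 0.72 ± 0.20. Atf4 had 0.49 ± 0.20, just beyond the range of repeat spots. With median scaling the log2 differences were -0.24 for Atf4, -0.01 for Sesn2 and 0.005 for Chac1. In the same setting Ppp1r15a at 0.56 and Trib3 at 0.997 were under 2-fold. After normexp correction Asns at 0.78, Ppp1r15a at 0.94 and Psat1 at 0.29 were under 2-fold. Atf3 and Ddit3 passed 2-fold under all 10 settings. The median over the 9 members measured on both arrays was 1.29, beside -0.15 over all 10885 such genes.

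**Figure D3:**
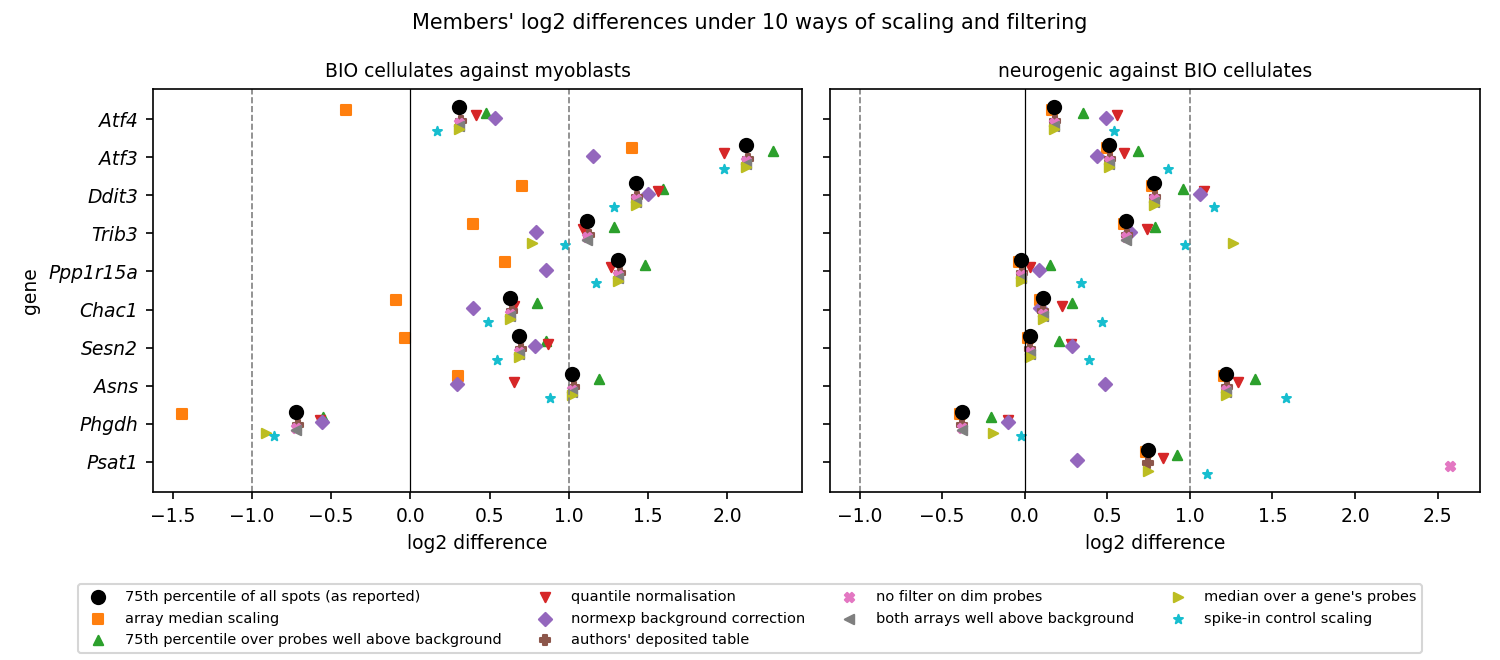
Log2 differences of the members under 10 ways of scaling and filtering, for BIO cellulates against myoblasts and neurogenic against BIO cellulates; black circles are the values reported in the text and dashed lines mark 2-fold. Median scaling shifts every member by -0.72 in the left panel, which puts Atf4, Chac1 and Sesn2 below 0, while in the right panel Ppp1r15a is the gene whose sign varies.

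The order of the arrays was next described gene by gene. Of the 9 members well above background on all 3 arrays, 7 had a higher scaled signal in neurogenic than in BIO cellulates and in BIO cellulates than in myoblasts, as did 14.1% of 10666 genes. Of these members, Ddit3, Trib3 and Asns did so by at least 1.5-fold in both steps, as did 1.69% of genes. The steps share the BIO array, and with median scaling Atf4, Chac1 and Sesn2 leave the set of 7. In that setting the log2 difference of BIO cellulates against myoblasts was 0.40 for Trib3 and 0.30 for Asns, both under 1.5-fold. Ddit3 stayed past 1.5-fold in both steps, at 0.70 and 0.77. After normexp correction both steps of Asns were under 1.5-fold, at 0.30 and 0.49. The genes whose pair of differences lay closest to the members' median differences, 1.02 for BIO cellulates minus myoblasts and 0.18 for neurogenic minus BIO cellulates, were Spata33, Dnajc28, Zdhhc1, Hsd17b2 and Pced1b, at Euclidean distances from 0.028 to 0.050 log2 units over the 3 arrays. Within the smallest repeat-spot range of that point lay 574 of 10657 other genes.

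Other genes of the pathway were then described by list. Over all genes compared, 11.2% were higher and 6.01% lower by 2-fold or more in BIO cellulates against myoblasts. The shares were 4.16% and 1.8% in neurogenic against BIO cellulates, and 12.1% and 10% in neurogenic cellulates against myoblasts. Among other partners and stress targets of ATF4, 17 could be compared between BIO cellulates and myoblasts. Of these, 2 were higher and 1 lower by 2-fold or more, close to the shares of all genes. Fgf21, the secreted metabolic hormone, was 3.51-fold higher and the stress regulator Nupr1 2.09-fold higher, while the growth arrest gene Gadd45b was 2.06-fold lower. In neurogenic against BIO cellulates, 3 of 17 were at least 2-fold higher and 0 lower. Fgf21 was again the leading gene at 8.07-fold, followed by the cytokine gene Gdf15 at 2.74-fold and Gadd45a at a bound of at least 2.09-fold. The log2 scaled signal of Fgf21 was 1.71 in neurogenic cellulates, -1.30 in BIO cellulates and -3.11 in myoblasts. Fgf21 was thus 28.3-fold higher in neurogenic cellulates than in myoblasts. The myoblast value lay near the lowest signal marked well above background on that array, -3.73, so the size of this fold is uncertain. Gdf15 in BIO cellulates, at -2.42, lay near the lowest such signal of the BIO array, -2.73, so its 2.74-fold is also uncertain. In neurogenic cellulates against myoblasts 6 of 18 were higher by 2-fold or more and 2 were lower. Among the higher genes were Gadd45a at least 4.18-fold, Gdf15 at 3.63-fold and Nupr1 at 2.91-fold, and Gadd45b was 3.16-fold lower. Over the list the median log2 difference was 0.27 in BIO cellulates against myoblasts and 0.08 in neurogenic against BIO cellulates.

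Other amino acid supply genes came next. In the list of amino acid synthesis and one-carbon enzymes, 1 of 14 compared was at least 2-fold higher in BIO cellulates than in myoblasts, the cystathionine synthase gene Cbs at 2.46-fold, and the list median was 0.14. In neurogenic against BIO cellulates the 1 gene at least 2-fold higher was Ass1, an arginine synthesis gene, at 3.87-fold. In neurogenic cellulates against myoblasts 5 of 14 were higher by 2-fold or more, beside 12.1% of all genes. They were the aspartate aminotransferase gene Got1 at 3.41-fold, Ass1 at 2.65-fold, the glutamine synthetase gene Glul at 2.18-fold, Psph, which completes serine synthesis, at 2.07-fold and Cbs at 2.06-fold, and the list median was 0.12. The log2 scaled signal of Got1 in myoblasts, -3.58, lay near the lowest signal marked well above background there, -3.73. The size of its fold is therefore uncertain. Amino acid transporters gave 0 calls of 12 in BIO cellulates against myoblasts and 0 of 10 in neurogenic against BIO cellulates. Against myoblasts, the neurogenic cellulates had 1 transporter at least 2-fold higher, the glycine transporter gene Slc6a9 with a log2 difference of 1.63, and 1 lower, the glutamine transporter gene Slc38a1 at 2.97-fold.

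The aminoacyl-tRNA synthetases, which ATF4 also drives in other settings, gave 0 calls of 20 in BIO cellulates against myoblasts and 0 of 19 in neurogenic against BIO cellulates. Against myoblasts, the neurogenic cellulates had 1 of 20 lower, the valine enzyme gene Vars at 2.33-fold. The median log2 differences in the earlier comparisons were -0.01 and -0.23, close to the 0.01 and -0.18 of all genes. Genes for eIF2, its kinases and its exchange factor eIF2B had medians of -0.11 and -0.50 in the same comparisons. The exchange factor gene Eif2b1 was at least 2.32-fold higher in neurogenic than in BIO cellulates, and the kinase genes Eif2ak2 and Eif2ak3 were dim on all 3 arrays by the probes used. The haem-sensing kinase gene Eif2ak1 had log2 differences of 0.00 in BIO cellulates against myoblasts and -0.69 in neurogenic against BIO cellulates, and the amino acid-sensing kinase gene Eif2ak4 had -0.93 and 0.11. In neurogenic cellulates against myoblasts Eif2b1 was 3.13-fold higher, while Eif2s3x at 2.13-fold and the Eif2ak4 activator gene Gcn1 at 2.18-fold were lower. The log2 scaled signal of Eif2b1 in myoblasts, -3.17, lay near the lowest signal marked well above background there, -3.73. The size of its fold is therefore uncertain.

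Genes of the endoplasmic reticulum chaperone arm, a neighbouring branch of the unfolded protein response, were described as a contrast. Of 19 compared, 0 were at least 2-fold higher and 1 was at least 2-fold lower in BIO cellulates than in myoblasts, with a median log2 difference of -0.27. The 1 lower gene was Pdia4, a disulfide isomerase gene, at 2.49-fold. In neurogenic against BIO cellulates 0 of 19 passed 2-fold either way, with a median of 0.01. The chaperone gene Hspa5, the usual marker of this arm, had log2 differences of 0.05 and 0.22 in these comparisons. Against myoblasts, the neurogenic cellulates had 3 of 19 lower, Pdia4 at 2.47-fold, Xbp1 at 2.36-fold and Creld2 at 2.19-fold, and 1 higher, Dnajb9 at 2.12-fold. The difference between this list and the members was not tested.

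**Figure D4:**
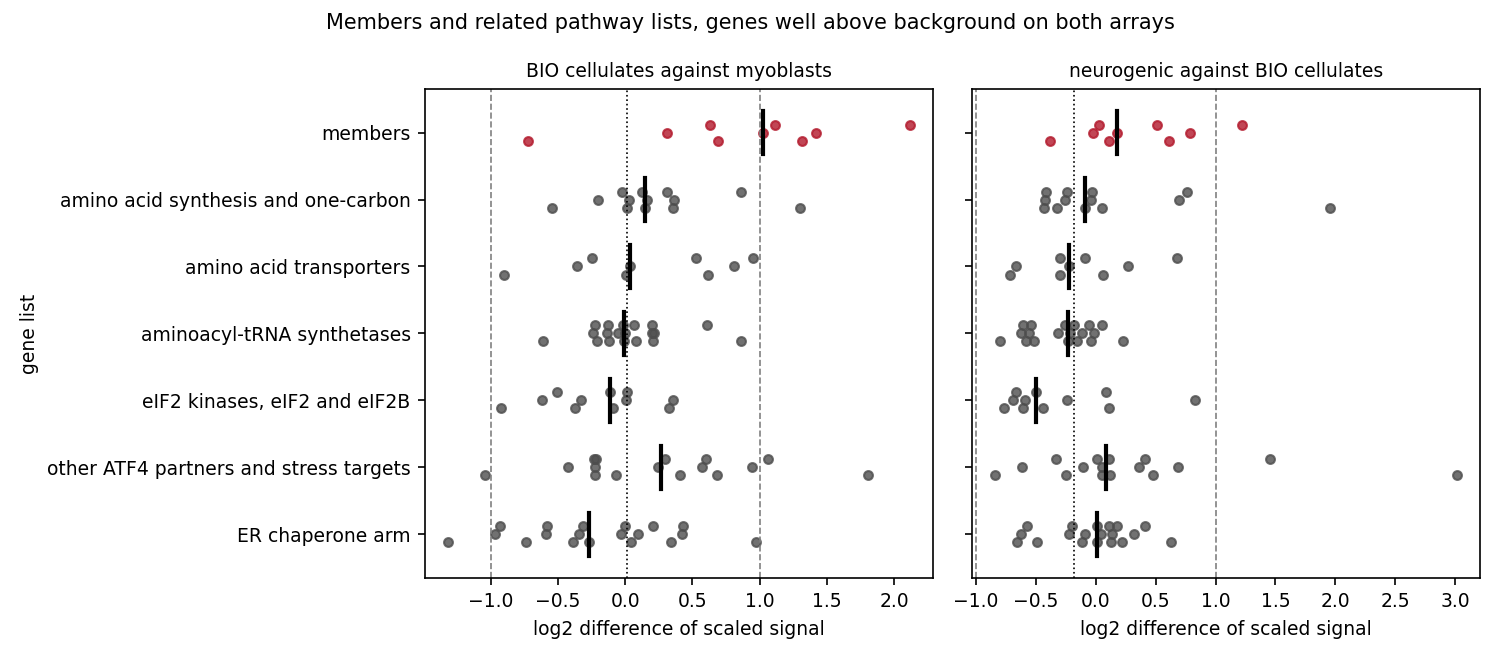
Log2 difference of scaled signal of the members (red) and of 6 related lists (grey), for genes well above background on both arrays; black bars are list medians, the dotted line the median of all genes and dashed lines 2-fold. In BIO cellulates against myoblasts the members' median is 1.02 and that of the chaperone arm -0.27, and with median scaling all points in that panel move left by 0.72.

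Paralogues of the members served as relatives with the same protein fold. Of 6 compared, 0 passed 2-fold in BIO cellulates against myoblasts. Sesn1 and Sesn3, relatives of Sesn2, had log2 differences of 0.01 and 0.50. Trib1 and Trib2, relatives of Trib3, had -0.50 and -0.60, against 1.11 for Trib3. In neurogenic against BIO cellulates Trib2 was 2.12-fold higher, while Trib1 had a log2 difference of -0.05. Atf5 and Jdp2, bZIP factors related to Atf4 and Atf3 that are also in the list of partners, had 0.69 and 0.95 in BIO cellulates against myoblasts, and Jdp2 was 2.08-fold higher in neurogenic cellulates than in myoblasts.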

How the data were processed

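Gene expression was measured on 3 one-colour arrays of 1 slide, 1 per group, with groups taken from the treatment label. Per the labels' protocols, Cy3 labelling started from 200 ng of RNA. Design 014868 was read by Agilent Feature Extraction 10.7.3.1, which, per the file headers, wrote background-subtracted linear intensity values, an error for each and marks for spots well above background. The authors' deposited table holds log2 values offset from log2 intensity by 0.23 in neurogenic cellulates, 0.67 in BIO cellulates and 0.00 in myoblasts. It was used as an alternative.

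Control and outlier spots were left out, repeat spots were averaged on the log2 scale, and each array was divided by its 75th percentile (156, 115 and 181 intensity units in the same order of groups). Probes were named by accession through RefSeq GRCm38.p6 (26918 of 41174), and a gene took its brightest probe. Headers name build mm9, and the only coordinates given are those of the RefSeq promoter windows, on GRCm38.p6. Where 1 of 2 arrays was well above background, the fold is a lower bound, taken against the dim probe's signal or, if larger, the dimmest signal marked as well above background on that array. Counts leave out genes whose brightest probe was dim on an array where another of their probes was not. A difference of 1 on the log2 scale (2-fold) was called, with no test. In the related lists, the genes at least 2-fold different were named, up to the 5 largest per list and comparison. Members and lists were chosen with earlier results of these data known. Functions were checked on simulated data. Python 3.11.15, pandas 2.3.3 and limma 3.58.1 in R 4.3.3 were used. How many cultures gave the RNA of an array is not stated in the labels. Alternatives were other scalings, the deposited table, other rules for dim probes and the median over probes. A further alternative was normexp on the median signals, with 50 intensity units added, followed by quantile normalisation.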

Additional observations from a re-analysis of the deposited data

Results flagged for a closer look

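Probes that the gene-level values did not use carried signal on the neurogenic array. The third Phgdh probe was at least 9.95-fold brighter in neurogenic than in BIO cellulates and at least 19.9-fold brighter than in myoblasts. It was not well above background in BIO cellulates or in myoblasts. Both brighter Phgdh probes were lower in neurogenic cellulates than in myoblasts, at a log2 difference of -1.10. Against BIO cellulates they gave -0.38 and -0.19, inside the range of repeat spots. The second Trib3 probe was at least 1.31-fold and 2.63-fold brighter in neurogenic cellulates than in BIO cellulates and myoblasts, in the direction of the brighter Trib3 probe. The cause of either was not tested.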

How the results depend on the processing

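The members were recomputed under 9 other settings, 1 of them, scaling on spike-in controls, added after the data had been seen. The settings on dim probes and on several probes cannot change a gene with 1 probe well above background on both arrays. In BIO cellulates against myoblasts, 5 members were at least 2-fold higher as reported, against 1 with median scaling, 2 after normexp correction and 3 with spike-in scaling; 0 were lower as reported and 1 with median scaling. In neurogenic against BIO cellulates, 1 was higher as reported, 2 after quantile normalisation, with no filter on dim probes or with probes of 1 gene summarised by their median, and 3 with spike-in scaling. In neurogenic cellulates against myoblasts, 1 was lower as reported and 0 with the percentile over probes well above background, quantile normalisation, normexp or spike-in scaling. The other 42 counts stayed within 1.5 times, and 23 of 29 member differences kept their sign in every setting that gave a value; the other 6 are those of Atf4, Chac1, Sesn2 and Ppp1r15a given above. A change of scaling constant cannot move a member across the median of all genes; after quantile normalisation, normexp and the median over probes, 8 of 9 members lay above it in each comparison, as reported. Among all genes at least 2-fold different, the share higher was 69.9% in neurogenic against BIO cellulates as reported, against 83.5% with the percentile over bright probes, 81.0% after normexp and 91.9% with spike-in scaling. It was 54.7% in neurogenic cellulates against myoblasts, against 11.5% with median scaling, 78.9% with the percentile over bright probes, 76.9% with no filter and 71.0% with spike-in scaling. For BIO cellulates against myoblasts the share was 65.1%, against 76.9% with the percentile over bright probes, 50.6% after normexp, 81.0% with no filter and 52.5% with spike-in scaling. Psat1 and Asns lie near background, and normexp gave their lowest values. The normexp setting adds 50 intensity units to every spot, which by arithmetic makes the log2 differences of dim spots smaller. The part of this in these changes was not tested. No paired analysis was possible because each group was 1 array.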
